A study of Mus musculus with 2 samples.

Results

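Cxcl1, Cxcl2, Cxcl3, Cxcl5, Ppbp, Pf4 and Cxcr2 encode secreted chemokines that draw neutrophils, a platelet chemokine of the same gene cluster, and the receptor on which the neutrophil attractants act. They are 7 of the 33696 genes counted, were chosen by name, and were read in 10835 cells of a treated 4T1 tumour library. In this library Cxcl2 was among the most abundant transcripts of neutrophil-class cells, which also held 88.3% of the UMIs of Cxcr2. Cxcl1 was highest in fibroblast-class cells, closely followed by macrophage-class cells. Cxcl5 was highest in fibroblast-class cells, Pf4 in macrophage-class cells, and most Ppbp transcripts came from 99 cells.

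The series compared subcutaneous tumours of 4T1, a mouse breast cancer line, in treated and control mice of genotype WT. The treated group received an agent named PCN in the labels and PATCH in the title of the series, and the control group received PBS in its place. Each group was 1 library, and the labels give neither the number of animals in a library nor the day of collection. Counts of the treated library were used and those of the control were not analysed here, so every comparison below is between cell classes of 1 library and has no replicate and no test.

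Each transcript was counted by its unique molecular identifier (UMI), 1 per captured molecule, at the 3′ end of polyadenylated RNA. Since 1 molecule gives 1 UMI whatever its length, levels were not divided by transcript length. Levels are given in CPM, the UMIs of a gene summed over a class per 1000000 UMIs of that class. The 10835 cells that the authors kept held 60652188 UMIs, with a median of 3575 per cell. Of their barcodes, 33 were also listed for the control library. Intervals are 95% intervals (exact Poisson for levels, exact conditional for ratios, Clopper-Pearson for shares) and cover counting error only. Those of differences between shares were combined from the Clopper-Pearson intervals of both shares (square-and-add) and are approximate.

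Cells were put into classes by the share of their UMIs from a few genes that are not among the 7. A cell was neutrophil-class at 2% or more from S100a8, S100a9, Csf3r and G0s2, and otherwise fibroblast-class at 0.5% or more from Col1a2, Col3a1 and Dcn. The next cuts were 0.1% from Krt8, Krt18, Krt7 and Epcam for the tumour class and 0.1% from Cd3e, Cd3g, Trbc2 and Ncr1 for the T/NK class. The last was 0.3% from C1qa, C1qb, Csf1r, Apoe and Lyz2 for the macrophage class. This gave 3518 neutrophil-class cells, 4672 macrophage-class cells, 325 fibroblast-class cells, 322 tumour-class cells and 238 T/NK-class cells, and left 1760 cells unclassed. Median depth ran from 1698 UMIs per cell in the neutrophil class to 11662 in the fibroblast class. Marker genes that had no part in the rules fell in their own classes: 6 neutrophil markers summed to 11199 CPM in neutrophil-class cells and 799 CPM in macrophage-class cells. Of these 6, Mmp9 was the exception, at 622 CPM in neutrophil-class cells and 1081 CPM in unclassed cells. The authors' list left out 1474 barcodes, of which 1097 held more UMIs than any kept cell. Among those left out, 436 met the tumour rule and 242 the fibroblast rule, so more barcodes of the tumour rule were left out than kept.

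As background, CXCR2 is a G protein-coupled receptor that moves neutrophils from bone marrow into blood and from blood into tissue. In mice its main ligands are the products of Cxcl1 (KC), Cxcl2 (MIP-2), Cxcl3, Cxcl5 (LIX) and Ppbp (the precursor of CXCL7). All of these carry the Glu-Leu-Arg (ELR) motif ahead of their first cysteines. Cxcl1, Cxcl2 and Cxcl3 are classical targets of NF-kappaB in stimulated macrophages and fibroblasts. Pf4 (CXCL4) lacks the ELR motif and is not a classical CXCR2 agonist, and Pf4 and Ppbp are best known as platelet alpha-granule proteins. In RefSeq's gene order the ligands lie together on chromosome 5 as Cxcl5, Ppbp, Pf4, Cxcl3, Cxcl15, Cxcl1 and Cxcl2, and Cxcr2 lies beside Cxcr1 on chromosome 1.

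The promoters below are shown because Cxcl1, Cxcl2 and Cxcl3 were each detected more often in macrophage-class cells that had another of them, and their neighbours Ppbp and Pf4 are shown beside them. Each is the 110 bases before the annotated start, read 5′ to 3′ on the plus strand, from RefSeq's table for GRCm38.p6, in which 6 of the 7 genes were found. Capitals mark matches to an NF-kappaB site, GGGA followed by any base and TTTCC, or to TATAAA, the TATA box. Both motifs were chosen after the sequences were seen.
Cxcl1, chr5:90891135-90891244: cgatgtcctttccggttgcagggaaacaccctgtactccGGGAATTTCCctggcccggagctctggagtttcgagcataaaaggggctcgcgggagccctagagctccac
Cxcl2, chr5:90903789-90903898: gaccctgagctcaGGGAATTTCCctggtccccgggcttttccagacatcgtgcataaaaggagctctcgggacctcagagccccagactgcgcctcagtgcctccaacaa
Cxcl3, chr5:90785991-90786100: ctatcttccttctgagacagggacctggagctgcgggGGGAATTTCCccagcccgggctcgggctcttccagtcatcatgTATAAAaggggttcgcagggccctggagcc
Ppbp, chr5:90768408-90768517: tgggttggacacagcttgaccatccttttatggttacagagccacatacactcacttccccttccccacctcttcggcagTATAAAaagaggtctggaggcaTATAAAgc
Pf4, chr5:90772325-90772434: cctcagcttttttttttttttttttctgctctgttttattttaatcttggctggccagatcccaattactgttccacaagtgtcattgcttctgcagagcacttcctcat

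Searched on both strands of the 250 bases before the start, the NF-kappaB site occurred once in Cxcl1 (positions -71 to -62, with -1 the base before the start), once in Cxcl2 (-97 to -88) and once in Cxcl3 (-73 to -64). It was found in 117 of the 32851 promoters of the table, or 0.356%, and not in the windows of Ppbp, Pf4 or Cxcr2. TATAAA, found in 12.4% of promoters, was present in Cxcl3 and Ppbp. Only exact matches were counted, and the printed stretches of Cxcl1 and Cxcl2 hold cataaa, which differs from it at the first base. Over the 50 bases of the NF-kappaB match and 20 on each side, Cxcl1 and Cxcl2 were identical at 29, Cxcl1 and Cxcl3 at 25, and Cxcl2 and Cxcl3 at 21. The windows were lined up on the match, and its bases, the same in all 3 genes, are counted in these values. The values thus do not measure how alike the promoters are outside the match. A match of letters does not show that a factor bound there, and whether these matches bear on co-detection was not tested.

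Of the ligands, Cxcl2 had the highest level, and it was highest in neutrophil-class cells. Its level was 42624 CPM in neutrophil-class cells, 11440 CPM in unclassed cells, 6840 CPM in macrophage-class cells and 1105 CPM in fibroblast-class cells. The T/NK class stood at 655 CPM and the tumour class at 501 CPM. No 2 neighbours in that order had intervals of their ratio that held 1. By UMIs Cxcl2 ranked 2 among all genes in neutrophil-class cells and 7 in macrophage-class cells. The neutrophil class stood 6.40-fold above all other kept cells (interval 6.36 to 6.43). It held 47.5% of all Cxcl2 UMIs and the macrophage class 37.6%.

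Nearly every neutrophil-class cell carried Cxcl2. Cells were thinned to 1000 UMIs each, without those of lower depth, and then 98.7% of 2987 neutrophil-class cells had a Cxcl2 UMI, 85.0% of 4552 macrophage-class cells and 37.8% of 320 fibroblast-class cells. Without thinning the shares were 98.8%, 95.2% and 86.5%. The T/NK class, taken as cells that should lack these genes, served as the reference for background (free RNA). Of its 229 thinned cells, 18.8% (interval 13.9 to 24.4) had a Cxcl2 UMI, at an unthinned median of 2916.5 UMIs per cell. The tumour-class share of 19.4% of 278 cells (14.9 to 24.6) was close to that. Unthinned, the shares were 75.8% in the tumour class and 43.7% in the T/NK class, at median depths of 11176.5 and 2916.5 UMIs. Whether tumour-class Cxcl2 is free RNA was not tested. The T/NK value is itself uneven, since 3 T/NK-class cells held 302 of the class's 551 Cxcl2 UMIs, and without them its level was 302 CPM. In the tumour class 4 cells held 370 of 1667 Cxcl2 UMIs, and without them its level was 394 CPM.

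Cxcl3, the close homologue of Cxcl2, had the same order of classes at a lower level. Cxcl3 reached 5051 CPM in neutrophil-class cells, 2065 CPM in unclassed cells and 468 CPM in macrophage-class cells. It was at 103 CPM in fibroblast-class cells, 76.1 CPM in T/NK-class cells and 31.6 CPM in tumour-class cells. The neutrophil class stood 7.69-fold above all other kept cells (7.57 to 7.80). Unlike Cxcl2, Cxcl3 was missing from many neutrophil-class cells: 57.6% of thinned neutrophil-class cells had a UMI (55.8 to 59.4), against 19.3% of macrophage-class cells and 2.62% of T/NK-class cells. The unthinned shares were 62.5%, 40.2% and 7.98%. In fibroblast-class cells the thinned share of 6.25% (3.86 to 9.49) overlapped the T/NK interval of 0.967 to 5.62. Unthinned it was 24.3%, and the fibroblast-class level was 1.35-fold that of the T/NK class (1.03 to 1.79). Both levels were uneven: 4 fibroblast-class cells held 39.0% of that class's Cxcl3 UMIs, and 3 T/NK-class cells held 75% of theirs. Without those 3 T/NK-class cells the T/NK level was 19.4 CPM. The fibroblast-class level was not recomputed without its top cells. Whether fibroblast-class Cxcl3 is free RNA was not tested.

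Cxcl1 had another order of classes. It was highest in fibroblast-class cells at 1222 CPM (1186 to 1258), then 866 CPM in macrophage-class cells (857 to 876) and 845 CPM in unclassed cells. The macrophage-class and unclassed levels did not differ beyond counting error (ratio 1.02, 0.998 to 1.05). Neutrophil-class cells had 364 CPM, tumour-class cells 169.5 CPM and T/NK-class cells 60.7 CPM. The fibroblast class stood 1.64-fold above all other kept cells (1.59 to 1.69), and 1.41-fold above the macrophage class (1.37 to 1.46). Because the macrophage class was larger, it held 68.5% of all Cxcl1 UMIs and the fibroblast class 9.49%. Thinned cells with a Cxcl1 UMI made up 54.1% of the fibroblast class, 37.3% of the macrophage class, 12.9% of the tumour class (9.24 to 17.5), 11.01% of the neutrophil class (9.91 to 12.2) and 4.37% of the T/NK class (2.11 to 7.88). The unthinned shares in these classes were 82.2%, 66.6%, 36.6%, 14.2% and 7.98%. The thinned tumour-class and neutrophil-class shares thus lay above that of the T/NK class, and among the left-out barcodes of the tumour rule Cxcl1 stood at 301 CPM.

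**Figure D1:**
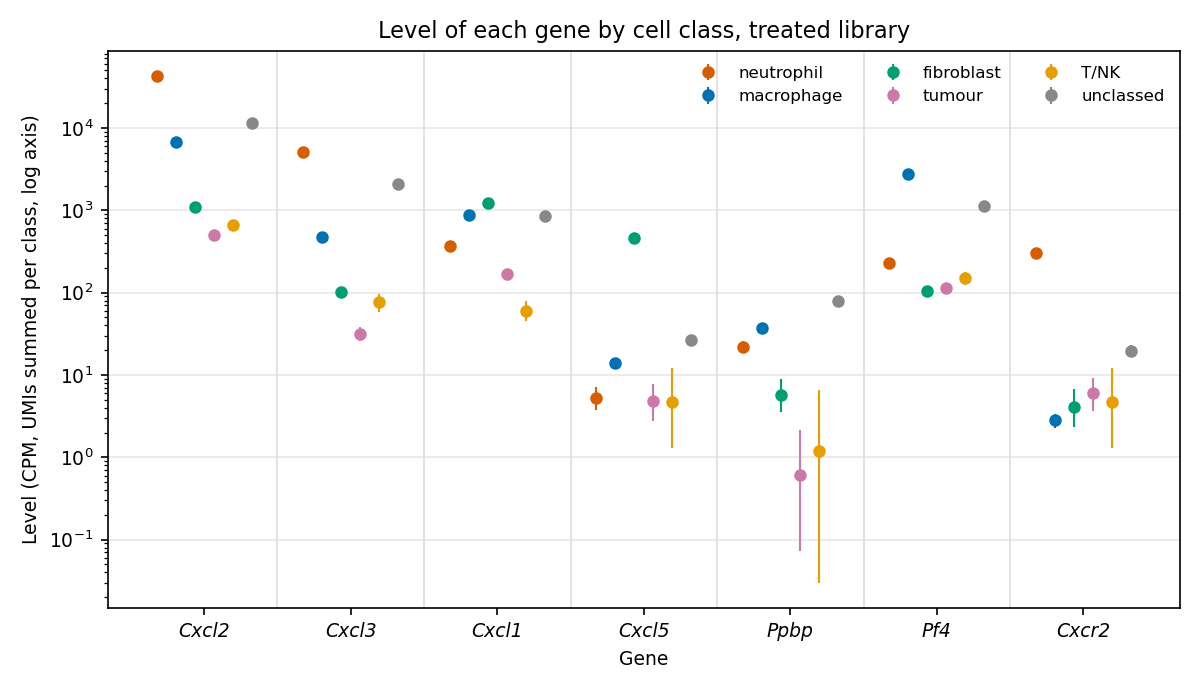
Level of each gene (CPM of summed UMIs, log axis) in the classes of the treated library, with exact Poisson intervals as bars. Cxcl2, Cxcl3 and Cxcr2 were highest in neutrophil-class cells, Cxcl1 and Cxcl5 in fibroblast-class cells, Pf4 in macrophage-class cells and Ppbp in unclassed cells.

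Among the ELR ligands, Cxcl5 had the widest ratio between its leading class and the rest. It reached 466 CPM in fibroblast-class cells (445 to 489), against 26.2 CPM in unclassed cells, 13.9 CPM in macrophage-class cells and about 5 CPM in each of the others. The fibroblast class stood 33.6-fold above all other kept cells (30.9 to 36.6) and held 68.2% of all Cxcl5 UMIs. The levels in neutrophil-class cells (5.31 CPM), tumour-class cells (4.81 CPM) and T/NK-class cells (4.76 CPM) did not differ beyond counting error. Most fibroblast-class cells had none: 14.4% of thinned cells had a UMI (10.7 to 18.7), and 35.7% without thinning. Over all classes, 94 cells with 5 or more Cxcl5 UMIs held 82.0% of the total, and 49 of them were fibroblast-class, 32 macrophage-class, 12 unclassed and 1 neutrophil-class.

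Ppbp was scarce and uneven. Its level was 78.8 CPM in unclassed cells, 37.7 CPM in macrophage-class cells, 22.1 CPM in neutrophil-class cells and 5.77 CPM in fibroblast-class cells. The T/NK class held 1 UMI and the tumour class 2. The macrophage class held 62.5% of all Ppbp UMIs, yet its level did not differ from that of all other kept cells beyond counting error (1.06-fold, 0.972 to 1.16). That ratio turned with the class cuts: its log2 value was 0.08 as reported, -0.80 with every cut doubled and 1.14 with every cut halved. A total of 99 cells with 5 or more UMIs held 79.9% of all Ppbp UMIs, and 63 of them were macrophage-class, 31 unclassed, 4 neutrophil-class and 1 fibroblast-class. In the neutrophil class, 14 cells held all 166 Ppbp UMIs.

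Pf4 was highest in macrophage-class cells. Its level there was 2780 CPM, and there it ranked 22 of all genes, and 1142 CPM in unclassed cells. The neutrophil class followed at 231 CPM, the T/NK class at 150 CPM, the tumour class at 115 CPM and the fibroblast class at 105 CPM. The macrophage class stood 5.44-fold above all other kept cells (5.34 to 5.55) and held 89.5% of all Pf4 UMIs. Among thinned cells, 58.5% of the macrophage class had a UMI, against 10.5% of the neutrophil class (9.47 to 11.7) and 6.99% of the T/NK class (4.05 to 11.1). The unthinned shares were 80.7%, 17.7% and 18.9%. The thinned intervals of the neutrophil and T/NK classes overlapped, while the neutrophil-class level was 1.54-fold that of the T/NK class (1.29 to 1.87). Whether neutrophil-class Pf4 is free RNA was not tested. Without cells that met more than 1 class rule, the level of Pf4 was 138 CPM in the neutrophil class and 149 CPM in the T/NK class. It was then 49.3 CPM in the fibroblast class and 48.5 CPM in the tumour class. That of the macrophage class was unaltered since none of its cells met another rule.

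Megakaryocyte and platelet genes were scarce in every class. Of 10 such genes (Itga2b, Gp9, Gp1bb, Gp1ba, Gp6, Treml1, Clec1b, Tubb1, Mmrn1 and Itgb3), the summed level in macrophage-class cells was 4.67 CPM, with Gp9 and Gp1ba at 0. It was 27.7 CPM in unclassed cells, 4.92 CPM in neutrophil-class cells, 22.8 CPM in tumour-class cells, 38.2 CPM in fibroblast-class cells and 68.99 CPM in T/NK-class cells. Itgb3 alone made up the whole T/NK-class sum, with the other 9 genes at 0 there. It also made up 25.3 CPM of the sum in unclassed cells, 18.6 CPM in tumour-class cells and 23.9 CPM in fibroblast-class cells. In macrophage-class cells Itgb3 stood at 1.40 CPM and in neutrophil-class cells at 2.13 CPM. In the 99 Ppbp-high cells the list summed to 16 UMIs, and the 8 genes other than Itga2b and Itgb3 to 3 UMIs, beside 9142 UMIs of Pf4. The list's level in those cells was 19.9 CPM, against 11.7 CPM over all kept cells. The limit of 5 UMIs for a high cell, and the set of 8 genes, were chosen after values had been seen.

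The receptor Cxcr2 was detected chiefly in neutrophil-class cells. Its level was 305 CPM in neutrophil-class cells (293 to 318), 19.6 CPM in unclassed cells, 6.01 CPM in tumour-class cells, 4.76 CPM in T/NK-class cells, 4.12 CPM in fibroblast-class cells and 2.80 CPM in macrophage-class cells. From the tumour class down, neighbours in that order did not differ beyond counting error. The neutrophil class stood 53.4-fold above all other kept cells (47.3 to 60.4) and held 88.3% of all Cxcr2 UMIs. After thinning, 27.0% of neutrophil-class cells had a UMI, against 0.719% of tumour-class cells, 0.437% of T/NK-class cells and 0.395% of macrophage-class cells, so only the neutrophil-class and unclassed (3.60%) shares exceeded the T/NK interval of 0.0111 to 2.41. Without thinning, 41.5% of neutrophil-class cells had a UMI, and no cell held more than 8. A cell without a Cxcr2 UMI at this depth may still carry the transcript.

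**Figure D2:**
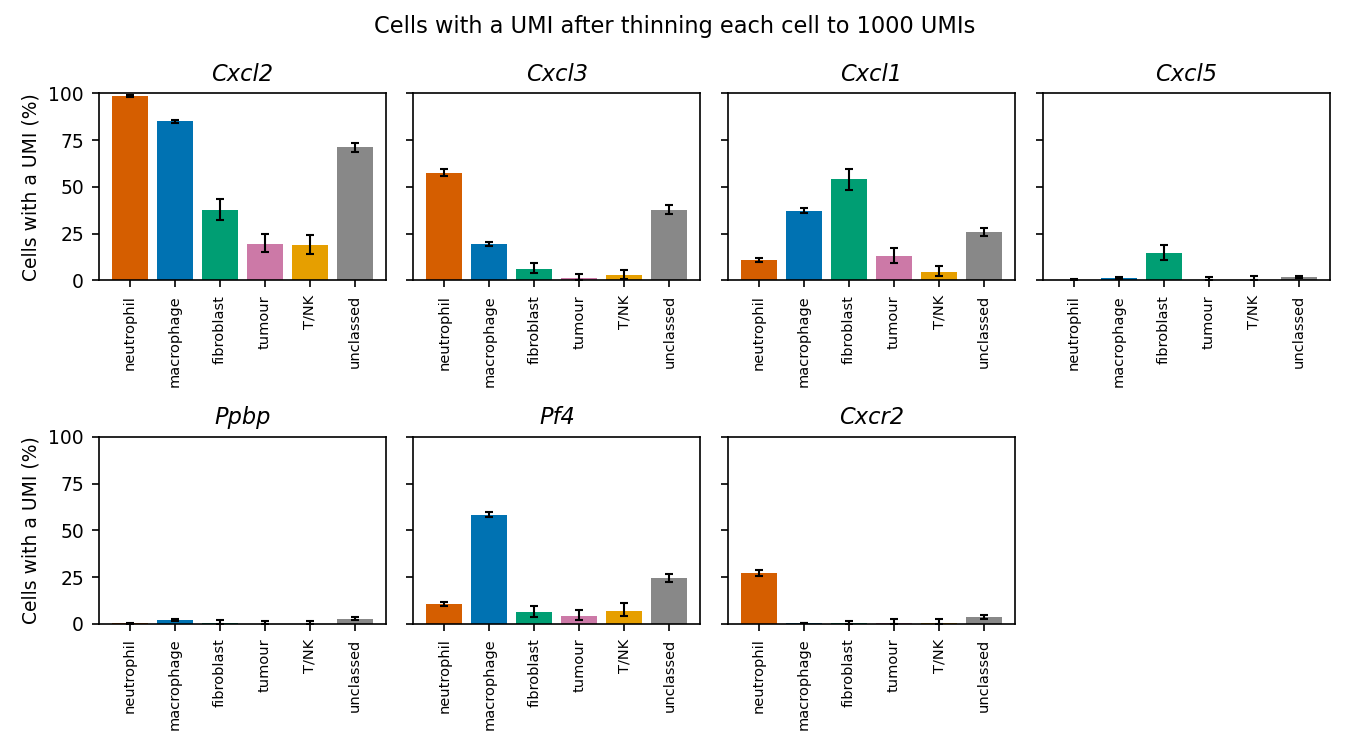
Share of cells with at least 1 UMI of each gene (y axis, percent) in each class after every cell was thinned to 1000 UMIs, with Clopper-Pearson intervals as bars. Cxcl2 was detected in 98.7% of neutrophil-class cells and 85.0% of macrophage-class cells, Cxcl5 and Ppbp in few cells of any class, and Cxcr2 in 27.0% of neutrophil-class cells.

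Read against all genes, the counts of members are as follows, with a call at a level at least 2-fold from that of all other kept cells and at least 50 UMIs. In the neutrophil class 3 of the 7 genes were higher (Cxcl2, Cxcl3 and Cxcr2), beside 9.33% of 14287 genes, and 3 were lower, beside 59.6% of genes. In the macrophage class 1 was higher (Pf4), beside 6.26% of genes, and 4 were lower, beside 22.5%. In the fibroblast class 1 was higher (Cxcl5), beside 18% of genes, and 5 were lower, beside 23.2%. In the tumour class none was higher, beside 25.3% of genes, and all 7 were lower, beside 24%. In the T/NK class none was higher, beside 19% of genes, and all 7 were lower, beside 26.1%.

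Summed over Cxcl1, Cxcl2, Cxcl3, Cxcl5 and Ppbp, the neutrophil class held 45.3% of ligand UMIs, the macrophage class 38.2% and the unclassed cells 14.9%. A neutrophil-class cell held on average 103 ligand UMIs, an unclassed cell 67.6, a macrophage-class cell 65.3, a fibroblast-class cell 32.5, a tumour-class cell 7.31 and a T/NK-class cell 2.82. These means rest on cells of unequal depth. Scaled to depth, the summed ligands stood at 48066 CPM in the neutrophil class, 14455 CPM in unclassed cells, 8226 CPM in the macrophage class, 2902 CPM in the fibroblast class, 707 CPM in the tumour class and 798 CPM in the T/NK class. Cxcl2 made up 88.7% of ligand UMIs in neutrophil-class cells and 38.1% in fibroblast-class cells, where Cxcl1 made up 42.1% and Cxcl5 16.1%. Per 100 Cxcl2 UMIs there were 0.854 Cxcl1 UMIs in the neutrophil class, 12.7 in the macrophage class, 33.8 in the tumour class and 111 in the fibroblast class, against 9.26 in the T/NK class and 6.95 over all kept cells. The T/NK ratio rests on 51 Cxcl1 and 551 Cxcl2 UMIs, of which 33 and 302 were in 3 cells each, and the part of free RNA was not tested.

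**Figure D3:**
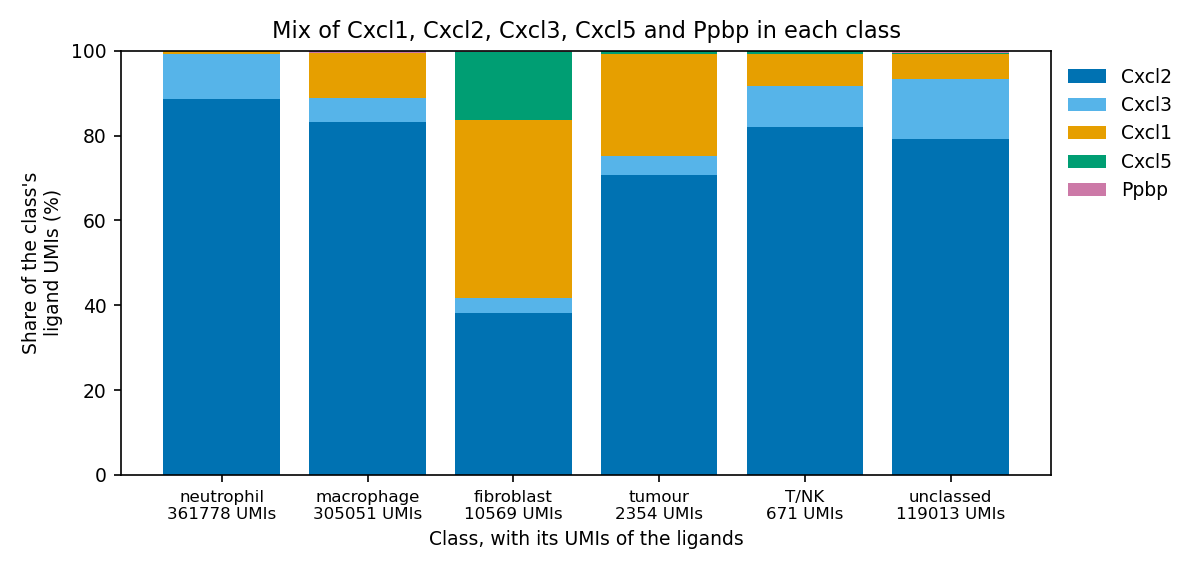
Share of Cxcl2, Cxcl3, Cxcl1, Cxcl5 and Ppbp (y axis, percent) among the summed UMIs of these ligands in each class, with the class's ligand UMIs under each bar. Cxcl2 made up 88.7% of the bar of neutrophil-class cells, and Cxcl1 with Cxcl5 made up most of the bar of fibroblast-class cells.

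After thinning, 52.4% of neutrophil-class cells had UMIs of 2 of the 5 ELR ligands and 38.3% of 1. Among macrophage-class cells 32.9% had 2 and 10.9% had 3, and 12.6% had none. Among fibroblast-class cells 25.3% had 2 and 5% had 3, and among unclassed cells 27.4% had 2 and 15.6% had 3. In the T/NK class 76.0% had none and 22.3% had 1.

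In macrophage-class cells Cxcl1, Cxcl2 and Cxcl3 were detected together. Cxcl3 was found in 28.5% of 1696 thinned cells with Cxcl1 (26.4 to 30.8), against 13.9% of 2856 cells without it (12.6 to 15.2). Cxcl1 was found in 42.0% of 3870 cells with Cxcl2, against 10.3% of 682 cells without it. Ppbp also went with Cxcl3. Cxcl3 was found in 40.9% of 88 cells with Ppbp (30.5 to 51.9), against 18.9% of 4464 without it (17.8 to 20.1). For Cxcl2 those shares were 84.1% and 85.0%. Pf4 was found in 55.8% of thinned cells that had Cxcl2 (54.3 to 57.4), against 73.8% of those that did not (70.3 to 77.0). Unthinned, these shares were 80.6% of 4448 cells and 81.7% of 224 cells, so the difference in detection was seen in thinned cells alone. Pearson's r over the 4672 macrophage-class cells, unthinned and on log-scaled UMIs per 10000, was 0.55 for Cxcl1 with Cxcl2. It was 0.44 for Cxcl2 with Cxcl3 and -0.32 for Cxcl2 with Pf4. These cells share a library and differ in depth, so the values describe this library alone.

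In macrophage-class and unclassed cells, Ppbp and Cxcl5 were detected mostly in cells with Pf4, and each more often in cells with the other. Most cells with Ppbp still had no Cxcl5 UMI. Pf4 was detected in 93.2% of 88 thinned macrophage-class cells with Ppbp (85.7 to 97.5), against 57.8% of 4464 without it (56.4 to 59.3). Cxcl5 was detected in 13.6% of the cells with Ppbp (7.25 to 22.6), against 0.941% of the cells without it, and in unclassed cells in 20.9% of 43 with Ppbp, against 1.26% of 1511 without it. All 99 Ppbp-high cells had Pf4, at 11358 CPM, and 34 of them had Cxcl5. The 44 macrophage-class or unclassed cells with 5 or more Cxcl5 UMIs all had Pf4 as well, and 22 of them had Ppbp. Of the 49 fibroblast-class cells with 5 or more Cxcl5 UMIs, 21 had Pf4 and 5 had Ppbp, and Pf4 stood at 109 CPM in them. At that limit Cxcl5 was thus carried by 49 fibroblast-class cells low in Pf4 and by 44 macrophage-class or unclassed cells high in Pf4. Any Cxcl5 UMI was found, unthinned, in 116 fibroblast-class, 173 macrophage-class and 53 unclassed cells. The Ppbp-high cells held a median of 7658 UMIs, against 3575 over all kept cells, and the part of depth was not tested beyond thinning.

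Within neutrophil-class cells, the shares with Cxcl3 and with Cxcl1 had overlapping intervals in cells with and without Cxcr2. Cxcl3 was found in 56.1% of 805 thinned cells with Cxcr2 (52.6 to 59.6) and in 58.2% of 2182 cells without it (56.1 to 60.2). The difference of -2.01 percentage points had an interval of -6.09 to 2.04. Cxcl1 was found in 9.81% of cells with Cxcr2 (7.85 to 12.1) and 11.5% of cells without it (10.2 to 12.9). Cxcl2 was found in 99.0% and 98.5%, but nearly every cell of the class had it, so its detection could hardly vary with Cxcr2. Pearson's r of Cxcr2, unthinned, was -0.05 with Cxcl1, -0.06 with Cxcl2 and -0.07 with Cxcl3. Levels of Cxcr2 and the ligands in groups of these cells are given below. Between ligands the picture differed, with Cxcl3 in 71.4% of 329 cells with Cxcl1 (66.2 to 76.2) against 55.9% of 2658 cells without it (54.0 to 57.8). In fibroblast-class cells Cxcl5 was found in 16.2% of 173 cells with Cxcl1 and 12.2% of 147 cells without it, a difference of 3.94 points whose interval, -4.29 to 11.9, held 0. Unthinned, the same difference was 24.6 points.

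**Figure D4:**
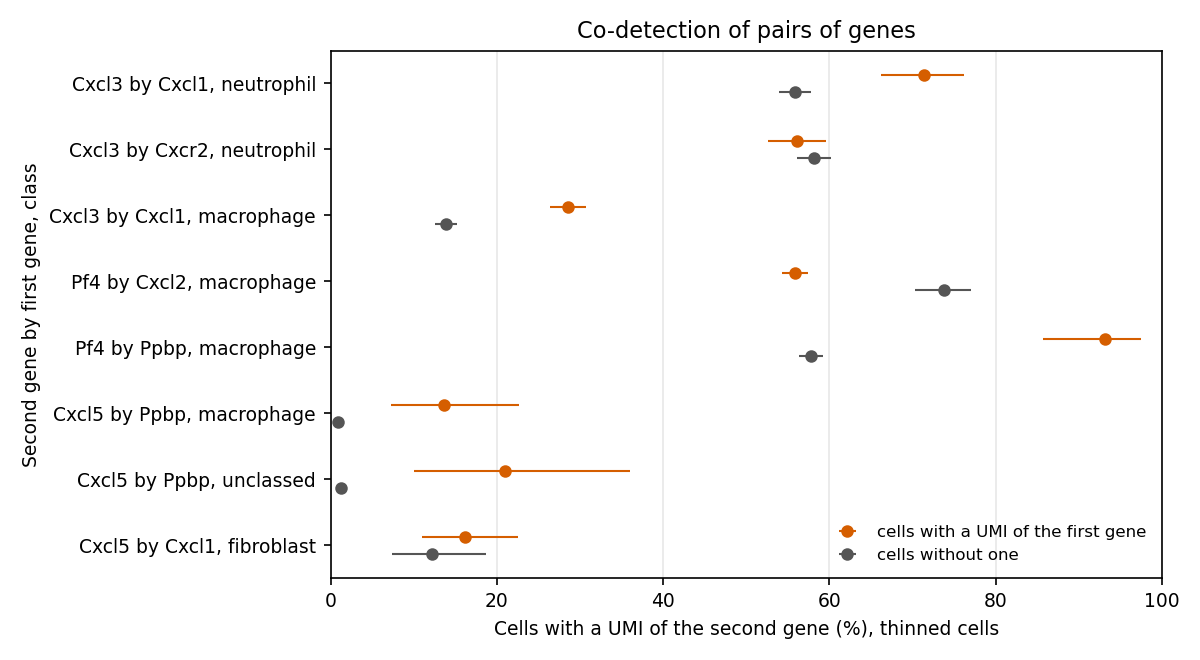
Share of thinned cells with a UMI of a second gene (x axis, percent) among cells with a UMI of a first gene (orange) and among cells without one (grey), with Clopper-Pearson intervals as bars. Among the pairs drawn, the widest gap is that of Pf4 by Ppbp in macrophage-class cells, 93.2% and 57.8%, and the intervals for Cxcl3 by Cxcr2 in neutrophil-class cells overlap.

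Neutrophil-class cells were then split by detection of Ccl3, a chemokine of activated myeloid cells, and of Retnlg, a resistin-like gene of circulating neutrophils, after thinning. Cxcl2 stood at 73663 CPM in 724 cells with Ccl3 only, 57102 CPM in 699 cells with both, 46512 CPM in 572 cells with neither and 28191 CPM in 992 cells with Retnlg only. Cxcl3 had 9946, 7684, 3904 and 2252 CPM in the same order of groups. Cxcl1 had 796 CPM in cells with Ccl3 only and 132 CPM in cells with Retnlg only. The Ccl3-only cells thus stood 2.61-fold above the Retnlg-only cells for Cxcl2 (2.58 to 2.65), 4.42-fold for Cxcl3 (4.21 to 4.63) and 6.02-fold for Cxcl1 (4.98 to 7.34). A Cxcl1 UMI was found in 16.9% of the Ccl3-only cells and 7.16% of the Retnlg-only cells. Cxcl1 was uneven, since unthinned 36 cells held 43.1% of the UMIs of Cxcl1 in the neutrophil class. All of the 4 intervals of Cxcl2 level stood apart from each other.

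Cxcr2 was lower in the Ccl3-only cells than in the Retnlg-only cells. It had 253 CPM in the Ccl3-only cells (217 to 292), 279 CPM in cells with both, 402 CPM in cells with neither and 401 CPM in the Retnlg-only cells (363 to 443). The intervals of the first pair of groups overlapped, and so did those of the last pair. The Ccl3-only cells had 0.630 of the level of the Retnlg-only cells (0.526 to 0.752). Other genes, added after values had been seen, had ratios of 6.32 for Icam1, an adhesion molecule, 2.39 for Nfkbia, the NF-kappaB inhibitor, and 0.315 for S100a8. S100a8 is a gene of the neutrophil rule. Pf4, whose thinned share in this class had an interval that overlapped that of the T/NK class, had a ratio of 0.867 with an interval that held 1 (0.661 to 1.13).

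**Figure D5:**
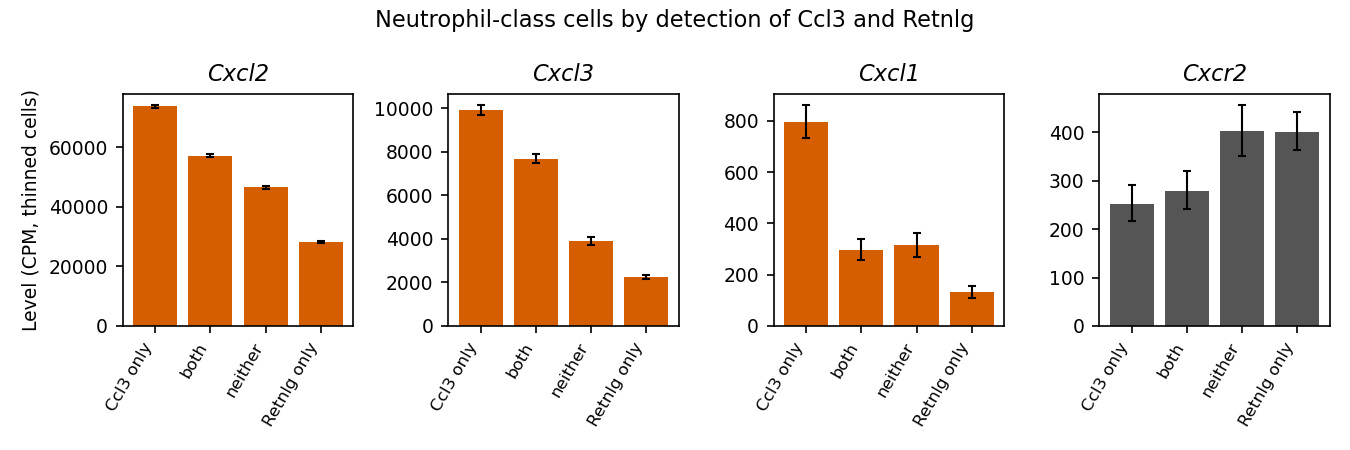
Level (CPM of summed UMIs in cells thinned to 1000 UMIs) of Cxcl2, Cxcl3, Cxcl1 and Cxcr2 in neutrophil-class cells with a UMI of Ccl3 only, of both Ccl3 and Retnlg, of neither, and of Retnlg only, with exact Poisson intervals as bars. The ligands were highest in Ccl3-only cells, and Cxcr2 was lower there (253 CPM) than in Retnlg-only cells (401 CPM).

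The genes whose pattern over the 10835 kept cells was most like each member were taken by Pearson's r among 12141 genes. For Cxcl2 they were Il1b (r = 0.74), the transcription factor gene Cebpb (0.73), the proteoglycan gene Srgn (0.73), Cd14 (0.69) and Clec4e (0.68). Within neutrophil-class cells they were Nfkbia (0.51), Cxcl3 (0.41), Ccl3 (0.41), Srgn (0.41) and Il1b (0.40). For Cxcl3, Cxcl2 came first both over all cells (0.58) and within neutrophil-class cells (0.41).

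For Cxcl1 the leading gene was Fn1, which encodes fibronectin (0.40), and within the 325 fibroblast-class cells it was the monocyte chemokine gene Ccl2 (0.59), followed by Nfkbia (0.55), Ccl7 (0.51), Ptx3 (0.45) and Egr1 (0.41). For Cxcl5 it was Ptx3, the long pentraxin (0.35), and within fibroblast-class cells Car4 (0.49), Serpinb2 (0.49), Ptx3 (0.47), S1pr3 (0.47) and Sod2 (0.47). For Ppbp the genes above an r of 0.2 were Pf4 (0.28), Arg1 (0.23) and Cxcl5 (0.23), of which Pf4 and Cxcl5 are its chromosomal neighbours.

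For Pf4 the genes were Lgmn, which encodes legumain (0.70), the mannose receptor gene Mrc1 (0.64), the chemokine gene Ccl9 (0.63), the cathepsin gene Ctsb (0.63) and Gm56663 (0.63). Within macrophage-class cells these were Ctsb (0.64), Ctsd (0.61), Ctsl (0.57), Lgmn (0.56) and Hmox1 (0.54). Cxcr2 went with S100a9 (0.51), S100a8 (0.48), Hdc (0.48), G0s2 (0.47) and the decoy receptor gene Il1r2 (0.45), of which S100a8, S100a9 and G0s2 had made the neutrophil class. Within neutrophil-class cells only Ifitm2 passed 0.2 (0.21).

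Genes around the receptor were read from 5 lists by the same 2-fold call. Among 7 receptors and binders of these ligands, 2 were higher and 4 lower in neutrophil-class cells, beside 9.33% and 59.6% of all genes, so the share lower was near that of all genes. The 2 higher ones were Cxcr1 and Cxcr2. Cxcr2 is in this list as well as among the 7 members, so its calls are counted in both. Cxcr1, the sister receptor, stood at 55.8 CPM in neutrophil-class cells and 1.05 CPM in other kept cells (52.9-fold), while the atypical receptor Ackr3 stood at 7.71 CPM and 91.1 CPM. In fibroblast-class cells 3 were higher and 3 lower, beside 18% and 23.2% of all genes, with Ackr3 at 665 CPM against 43.4 CPM in other cells and Ackr1, the atypical receptor that binds many inflammatory chemokines, at 11.8 CPM against 0.596 CPM. In macrophage-class cells 6 of the 7 were lower, beside 22.5% of all genes, and none higher.

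Of 19 signalling genes below CXCR2, 4 were higher and 2 lower in neutrophil-class cells, beside 9.33% and 59.6% of all genes. The kinase gene Fgr (217 CPM against 36.2 CPM in other cells) was among the higher ones, and Pik3r5, a regulatory subunit of PI3K gamma, stood at 35.6 CPM against 98.8 CPM. In fibroblast-class cells 15 of the 19 were lower, beside 23.2% of all genes, and none higher. In macrophage-class cells 4 were higher and 1 lower, beside 6.26% and 22.5% of all genes, and Arrb2, the arrestin gene, stood at 156 CPM against 57.1 CPM.

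Of 12 genes of neutrophil retention and release, 5 were higher in neutrophil-class cells and 2 lower, beside 9.33% and 59.6% of all genes. Csf3r, which was part of the neutrophil rule, was among the higher ones. Cxcl12, the marrow retention chemokine, reached 902 CPM in fibroblast-class cells against 5.89 CPM in other cells. Csf3, which encodes the growth factor G-CSF, reached 85.1 CPM in tumour-class cells against 11.9 CPM in other cells, and 51.6 CPM in fibroblast-class cells against 13.6 CPM.

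Of 20 inducers and brakes of the ligands, 6 were higher and 3 lower in neutrophil-class cells, beside 9.33% and 59.6% of all genes. Il1b stood at 9712 CPM in neutrophil-class cells against 1807 CPM in other cells, and its receptor gene Il1r1 at 5.45 CPM against 37.7 CPM. In fibroblast-class cells 3 of the 20 were higher and 6 lower, beside 18% and 23.2% of all genes. Among the higher ones, Il1r1 stood at 365 CPM against 12.5 CPM in other cells (29.1-fold, 26.5 to 31.9). Il17a, an inducer made by T cells, was at 332 CPM in T/NK-class cells, against 4 UMIs in all other kept cells. In macrophage-class cells none of the 20 was higher and 2 were lower, beside 6.26% and 22.5% of all genes.

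Of 13 other neutrophil attractants and receptors, 12 had 50 UMIs, and 9 of these were higher in neutrophil-class cells and none lower, beside 9.33% and 59.6% of all genes. The formyl peptide receptor genes Fpr1 (368 CPM against 14.9 CPM) and Fpr2 (165 CPM against 21.5 CPM) and the leukotriene B4 receptor gene Ltb4r1 (156 CPM against 28.5 CPM) were among them, as was Ccl3 (4087 CPM against 672 CPM). In fibroblast-class cells 10 of the 12 were lower, beside 23.2% of all genes, and in macrophage-class cells 4 were, beside 22.5%.

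The 168 neutrophil-class cells within 25% above the cut had Cxcl2 at 38811 CPM, Cxcl3 at 4913 CPM and Cxcr2 at 219 CPM. The 181 cells within 25% below it had 28513, 3460 and 142 CPM of the same genes. The sides of the fibroblast, tumour and T/NK cuts held 6 to 24 cells each, and Cxcl2 stood at 271 CPM just above and 3654 CPM just below the T/NK cut. For the macrophage cut, Pf4 stood at 2613 CPM in 226 cells just above and 2269 CPM in 264 cells just below, and Ppbp at 54.6 CPM and 178 CPM. Unclassed cells held Ctsk, an osteoclast protease gene chosen after its value was seen, at 1847 CPM, and most UMIs of the endothelial and B cell markers.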

How the data were processed

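RNA of single cells was sequenced from subcutaneous 4T1 tumours in 2 libraries, 1 per group, with Chromium 3′ v3 reagents per the labels' protocols. The authors deposited raw counts of UMIs for every gene and barcode, from Cell Ranger 8.0.1 per the file headers. STAR is also named, per the submitters' processing notes. The genome build is not given in the sources used here. A deposited cell list gives the barcodes the authors kept in each group. The matrix was taken as the treated library because it held all 10835 barcodes listed as treated, against 37 of 11643 control barcodes. It held 12309 barcodes and 96873409 UMIs.

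From these counts, UMIs were summed per class in Python 3.11.15 with pandas 2.3.3, scipy 1.17.1 and numpy 2.4.6, and figures were drawn with matplotlib 3.10.9. Shares of cells were read unthinned and after thinning each cell to 1000 UMIs (seed 7), which left out 531 neutrophil-class, 120 macrophage-class, 44 tumour-class, 9 T/NK-class and 5 fibroblast-class cells. The ratio and interval steps were tested on simulated data. Free RNA was not subtracted and no doublet caller was run. Instead, 345 cells that met several class rules were left out as an alternative. Depth limits detection, since a neutrophil-class cell had a median of 1698 UMIs and a macrophage-class cell 7168.5. With 1 library per group, cells are not replicates, no test was run, and intervals cover counting error only.

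The 7 genes, the class rules and the gene lists were chosen with earlier results of these data known. All 7 genes are named. Genes most alike were the 5 with the highest Pearson r per gene, over all kept cells and within the named class of its highest level, among genes with a UMI in at least 1% of kept cells, and those with r under 0.2 were not named. From each list, up to 4 genes per class with the largest ratios could be named, and Csf3, named outside this rule, was chosen after its values were seen. Promoter sequences are from RefSeq, GRCm38.p6, matched by symbol. Cxcl5 was not matched. Some genes of the lists are not reported here by name.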

Additional observations from a re-analysis of the deposited data

How the results depend on the processing

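For each gene, the log2 ratio of its leading named class over all other kept cells was recomputed under other settings, and so were 3 co-detection differences. Of 91 such values, 36 stayed within the reported interval, 41 moved away from 0 or past it and 14 moved toward 0. Of 317 further values, 181 stayed within it. As reported, the log2 ratios were 2.68 for Cxcl2 and 2.94 for Cxcl3 (neutrophil class), 0.72 for Cxcl1 and 5.07 for Cxcl5 (fibroblast class), 0.08 for Ppbp and 2.44 for Pf4 (macrophage class) and 5.74 for Cxcr2 (neutrophil class). With all barcodes they were 0.99 (Cxcl1), 3.11 (Cxcl2), 3.46 (Cxcl3), 1.09 (Ppbp), 3.20 (Pf4) and 6.14 (Cxcr2). With class cuts doubled they were 0.77 (Cxcl1), 2.42 (Cxcl2), 2.52 (Cxcl3), -0.80 (Ppbp), 1.62 (Pf4) and 4.91 (Cxcr2), and with cuts halved 2.72 (Cxcl2), 3.02 (Cxcl3), 1.14 (Ppbp), 2.90 (Pf4) and 6.51 (Cxcr2). As a mean over cells they were 0.84 (Cxcl1), 2.30 (Cxcl2), 2.39 (Cxcl3), 4.53 (Cxcl5), 0.53 (Ppbp), 2.77 (Pf4) and 4.35 (Cxcr2). With the other classes at equal weight they were 1.41 (Cxcl1), 3.38 (Cxcl2), 3.20 (Cxcl3), 5.41 (Cxcl5), 0.80 (Ppbp), 2.99 (Pf4) and 5.36 (Cxcr2). Thinned to 1000 UMIs they were 0.81 (Cxcl1), 2.43 (Cxcl2), 2.49 (Cxcl3), 4.52 (Cxcl5), 0.49 (Ppbp), 2.77 (Pf4) and 4.55 (Cxcr2). With cells meeting exactly 1 rule they were 3.05 (Cxcl2), 3.84 (Cxcl3), 5.32 (Cxcl5), 1.997 (Ppbp), 4.87 (Pf4) and 6.69 (Cxcr2). Chosen after seeing the data, cells meeting at most 1 rule gave 2.84 (Cxcl2), 3.12 (Cxcl3) and 2.52 (Pf4), and the 5 named classes alone gave 2.88 (Cxcl2), 3.66 (Cxcl3), 5.31 (Cxcl5), 1.61 (Ppbp), 4.02 (Pf4) and 6.58 (Cxcr2). Ppbp was thus the only one of these ratios to take the other direction. Unthinned cells gave 17.5 points for Pf4 by Ppbp and 24.6 points for Cxcl5 by Cxcl1. Away from the leading classes, the T/NK ratio of Ppbp reversed to 0.026 with cuts halved, where it rests on 1 UMI as reported. Leaving out barcodes also listed for the control library moved none of these ratios or differences beyond its interval. The causes of these shifts were not tested. Depth limits Cxcr2, of which no cell held more than 8 UMIs. No paired analysis was possible because each group was 1 library, of which only the treated one was analysed here.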
